A study of Mus musculus with 2 samples.

Results

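The 10 genes described here are readouts and ligands of the BMP and TGF-beta pathways, measured in mouse embryonic stem cells (mESCs) from which AIMP3 was depleted: *Id1*, *Id2*, *Id3*, *Id4*, *Smad6*, *Smad7*, *Bmp4*, *Tgfb1*, *Tgfb2* and *Tgfbi*. They were taken as all probes present on both arrays whose accession belongs to one of these symbols. This gave 12 of the 55681 probes on the array, for 10 of its 37018 genes. Of the 12 probes, 11 passed the filter on dim signals and gave a test for each of the 10 genes. The cells were derived from blastocysts and carried loxP-flanked *AIMP3* alleles with a Cre recombinase that tamoxifen switches on (AIMP3f/f;cre-ERT2). AIMP3-depleted cells received 2 μM tamoxifen for 4 days in medium containing LIF, in 2 replicates, and control cells of the same genotype received ethanol in the same medium. Each depleted replicate (Cy5) was read on its own Agilent array, against the same pool of control RNA (Cy3). The comparison addressed which transcripts differ when AIMP3 is depleted.

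BMPs and TGF-betas are secreted dimers that bring together type I and type II receptor kinases at the cell surface. BMP receptors phosphorylate Smad1 and Smad5, TGF-beta, activin and Nodal receptors phosphorylate Smad2 and Smad3, and both classes of Smad enter the nucleus with Smad4. The *Id* genes are among the most direct targets of BMP signalling, and their proteins bind E proteins and keep these basic helix-loop-helix factors off DNA. In mESCs grown with LIF, BMP4 is known to hold back neural differentiation through the Id proteins. *Smad6* and *Smad7* encode inhibitory Smads that are transcribed in response to the pathways and dampen them.

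The design sets 4 limits on every value. The control was 1 pool, and how far control cultures vary is therefore not part of any test. Depleted RNA was always in Cy5, so depletion and a dye effect on a probe cannot be told apart. Control cells had neither tamoxifen nor active Cre, and the effects of these cannot be told apart from that of AIMP3 loss. Nothing in the labels says that the replicates came from separate cultures, so the spread between arrays may be technical.

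Promoter sequences of the members are shown because both the *Id* genes and the inhibitory Smads are bound by Smads in their regulatory DNA, and E proteins bind E boxes. RefSeq promoter windows of assembly GRCm38.p6, from 250 bases before to 50 bases after the transcription start, were available for 8 of the 10 genes, and *Id1* and *Smad7* were not among them. The windows were searched for GGCGCC, a GC-rich element known from BMP-responsive promoters, for GTCTAGAC, the palindrome bound by Smad3 and Smad4, and for CANNTG, the E box. Each motif reads the same on both strands, and no match overlapped another. The 250 bases before the start are printed for the 2 members that passed the threshold of change below, *Id2* and *Tgfb2*, and for the 2 other *Id* genes, *Id3* and *Id4*. Capitals mark GGCGCC and CANNTG. *Id2* lies at chr12:25096093-25096342 on the minus strand, *Id3* at chr4:136143572-136143821 on the plus strand, *Id4* at chr13:48260866-48261115 on the plus strand and *Tgfb2* at chr1:186705990-186706239 on the minus strand.
Id2: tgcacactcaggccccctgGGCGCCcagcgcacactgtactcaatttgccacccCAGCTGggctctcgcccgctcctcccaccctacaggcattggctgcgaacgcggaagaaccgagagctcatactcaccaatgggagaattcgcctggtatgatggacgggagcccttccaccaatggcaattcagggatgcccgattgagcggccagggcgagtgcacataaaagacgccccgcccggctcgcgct
Id3: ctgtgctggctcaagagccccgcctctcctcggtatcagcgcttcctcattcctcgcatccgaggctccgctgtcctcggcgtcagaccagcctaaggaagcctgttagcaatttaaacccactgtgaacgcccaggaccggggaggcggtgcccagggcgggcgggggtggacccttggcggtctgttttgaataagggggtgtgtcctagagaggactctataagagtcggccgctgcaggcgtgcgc
Id4: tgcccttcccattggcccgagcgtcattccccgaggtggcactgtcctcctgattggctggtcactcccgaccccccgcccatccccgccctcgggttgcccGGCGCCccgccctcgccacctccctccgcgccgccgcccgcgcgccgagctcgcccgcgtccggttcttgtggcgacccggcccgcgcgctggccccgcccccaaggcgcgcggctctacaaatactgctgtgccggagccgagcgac
Tgfb2: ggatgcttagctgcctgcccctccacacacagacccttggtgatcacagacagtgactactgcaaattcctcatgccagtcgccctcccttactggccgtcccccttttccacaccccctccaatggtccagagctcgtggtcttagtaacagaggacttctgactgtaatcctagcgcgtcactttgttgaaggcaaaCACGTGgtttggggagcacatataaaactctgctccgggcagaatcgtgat

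GGCGCC was found in 3 of the 8 windows, beginning at position -231 from the transcription start in *Id2*, -148 in *Id4* and -77 in *Tgfbi*. Of all 32851 promoter windows of the same 300 bases, 11.9% held it. An E box was found in 4 of the 8 windows, those of *Bmp4*, *Id2*, *Smad6* and *Tgfb2*, against 72.3% of all windows. The E boxes of *Id2* and *Tgfb2* are CAGCTG and CACGTG. GTCTAGAC was found in the *Smad6* window alone, across the transcription start, and in 0.213% of all windows. The 30 bases around it lie at chr9:64022045-64022074 on the minus strand, with the palindrome in capitals.
Smad6: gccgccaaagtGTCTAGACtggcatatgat
These matches are a description of the letters in the windows, and the arrays measured no binding there.

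Values are log2 ratios of AIMP3-depleted over control after background correction and loess normalization within each array, so 0 means equal signal and 0.585 means 1.5-fold. A gene is called raised or lowered here when it differed by more than 1.5-fold with an unadjusted p under 0.05. The cut-offs are those of the study, whereas the p is limma's and not that of the methods' t-test. All adjusted p-values are from limma with Benjamini-Hochberg adjustment over the 24022 genes tested. Of these genes, 1518 (6.32%) passed that threshold, 1328 (5.53%) raised and 190 (0.791%) lowered. An adjusted p under 0.05 at any fold is a weak criterion in these data, since 54.3% of all genes met it, 30.6% with a higher and 23.7% with a lower signal in depleted cells. Both arrays gave close ratios, with a median SD of 0.048 between them. *Eef1e1*, the gene that encodes AIMP3, had log2 ratios of -0.90 on both arrays and a mean of -0.90 ± 0.0067 (SD, n = 2; adjusted p = 4.77e-05 by limma). The ratio runs in the direction that the labels give, while the study's methods describe theirs the other way round, as control divided by test. Where its probe lies relative to the deleted part of the gene is not given in the sources used here.

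Of the 10 genes, 2 were raised and 0 were lowered, against the 5.53% and 0.791% of all genes. The raised genes were *Id2*, 1.84-fold, and *Tgfb2*, 1.74-fold. All 10 had mean log2 ratios above 0, as did 52.7% of all genes, and 8 of the 10 had an adjusted p under 0.05, against the 30.6% of all genes that met this with a higher signal. The median log2 ratio of the 10 genes was 0.36, and the median of all genes was 0.0156. On the array of replicate 1 the median of the 10 was 0.399, and on that of replicate 2 it was 0.319. In bulk RNA, a difference in the share of cells of a type cannot be told apart from a difference in RNA per cell.

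**Figure D1:**
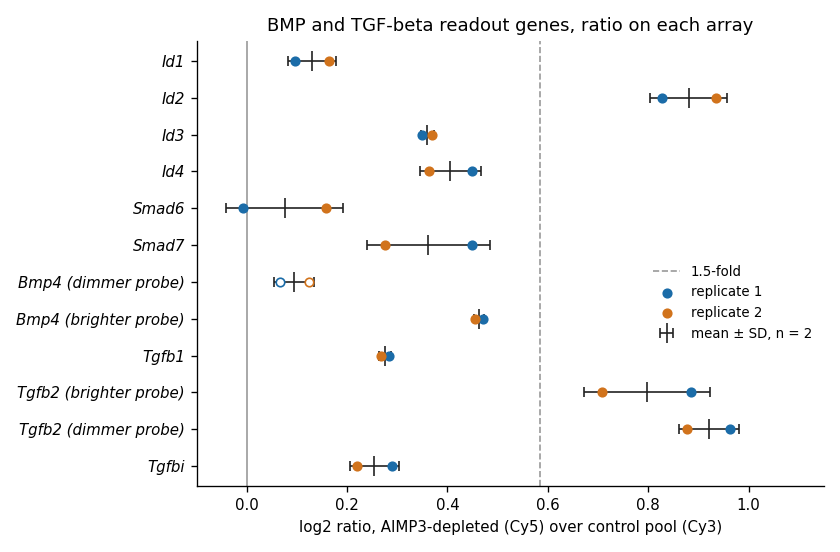
Log2 ratio of AIMP3-depleted (Cy5) over the control pool (Cy3) for each of the 12 probes, with a point per array, a bar at the mean and whiskers of 1 SD (n = 2). *Id2* and both probes of *Tgfb2* lie beyond the dashed line at 1.5-fold (0.585) on both arrays, *Smad6* lies on either side of 0, and the open points of the dimmer *Bmp4* probe were not tested.

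The 4 *Id* genes encode helix-loop-helix proteins without a DNA-binding region, and their mean log2 ratios ranged from 0.13 to 0.88. *Id2* had normalized log2 signals of 12.60 in depleted and 11.78 in control RNA on the array of replicate 1, and of 12.62 and 11.69 on that of replicate 2. Its log2 ratios were 0.83 and 0.94, with a mean of 0.88 ± 0.077 (SD, n = 2; 95% interval 0.76 to 1.00; limma adjusted p = 6.26e-05). Only 1.90% of all genes had a larger log2 ratio.

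*Id3* had log2 signals of 11.62 in depleted and 11.27 in control RNA on the first array, and of 11.55 and 11.18 on the second. The ratios of 0.35 and 0.37 were nearly equal, and their mean of 0.36 ± 0.013 (SD, n = 2) had a limma adjusted p of 0.000912. The interval of 0.25 to 0.47 excludes 0 and lies below 0.585, so *Id3* differed from the control by less than 1.5-fold. *Id4* was among the dim members, with signals of 8.20 in depleted and 7.75 in control RNA for replicate 1, and of 8.03 and 7.67 for replicate 2. Its ratios were 0.45 and 0.36, with a mean of 0.41 ± 0.061 (SD, n = 2; interval 0.29 to 0.52; limma adjusted p = 0.000742). A larger ratio than that of *Id3* was seen in 13.0% of all genes, and a larger one than that of *Id4* in 11.0%.

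*Id1*, which is often taken as the first readout of BMP signalling, had the smallest ratio of the family. Its log2 signals were 12.57 in depleted and 12.47 in control RNA for replicate 1, and 12.56 and 12.40 for replicate 2. The ratios of 0.10 and 0.16 gave a mean of 0.13 ± 0.048 (SD, n = 2; interval 0.02 to 0.24; limma adjusted p = 0.0517). Of all genes, 31.9% had a larger ratio. The intervals of *Id1* and *Id2* did not overlap, and the difference between the genes was not tested. Those of *Id3* and *Id4* overlapped over most of their length.

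The 3 E proteins that Id proteins bind were measured beside them, and none passed the threshold of change as processed here. *Tcf12*, which encodes HEB, had a log2 ratio of 0.55 ± 0.035 (SD, n = 2; limma adjusted p = 0.000209), and its other probe gave 0.38. It passed the threshold with median centring (0.747) and in the authors' deposited values (0.599). *Tcf4*, which encodes E2-2, had 0.08 (adjusted p = 0.185 by limma). *Tcf3*, which encodes E12 and E47, had -0.08 (adjusted p = 0.198 by limma).

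The inhibitory Smads are given side by side, and the difference between them was not tested. *Smad7*, which blocks both TGF-beta and BMP receptors, had log2 signals of 12.36 in depleted and 11.91 in control RNA for replicate 1, and of 12.15 and 11.88 for replicate 2. Its ratios of 0.45 and 0.27 differed between the arrays, with a mean of 0.36 ± 0.12 (SD, n = 2; interval 0.23 to 0.50; limma adjusted p = 0.00231). Both ratios were above 0 and below 0.585. *Smad6*, which acts mainly on the BMP branch, had signals of 8.63 in depleted and 8.64 in control RNA for replicate 1, and of 8.70 and 8.54 for replicate 2. Its ratios of -0.01 and 0.16 had opposite signs, and the mean of 0.08 ± 0.12 (SD, n = 2; interval -0.06 to 0.21) had a limma adjusted p of 0.282. As processed here, a difference in *Smad6* was not detectable with these 2 arrays, and the interval reaches a ratio of 0.21 on the log2 scale. With median centring *Smad6* was at 0.219 (limma adjusted p = 0.00367), where the median of all genes was 0.181.

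**Figure D2:**
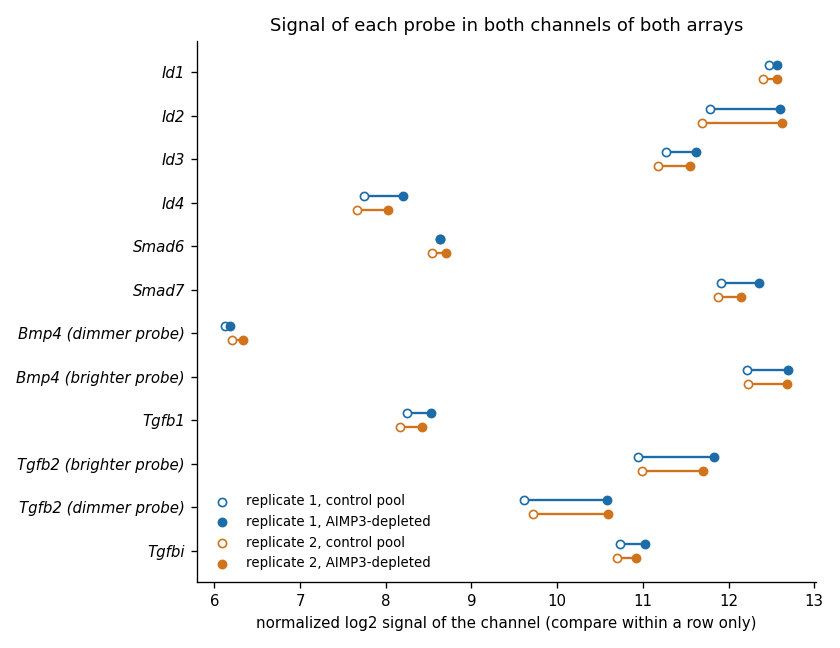
Normalized log2 signal of each probe in the control pool (open points) and in AIMP3-depleted RNA (filled points), with a line for each array joining its channels. The filled point lies to the right of the open point in both arrays for every probe but that of *Smad6*, and signals of different probes cannot be compared with each other.

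Among the 3 ligands of the 10 genes, *Tgfb2* had the largest ratio. TGF-beta 2 is secreted in a latent form, like the other TGF-betas. Its brighter probe had log2 signals of 11.83 in depleted and 10.94 in control RNA for replicate 1, and of 11.70 and 10.99 for replicate 2. The ratios were 0.89 and 0.71, with a mean of 0.80 ± 0.13 (SD, n = 2; interval 0.66 to 0.93; limma adjusted p = 0.000128). The dimmer probe had ratios of 0.96 and 0.88 and a mean of 0.92 ± 0.061 (SD, n = 2; adjusted p = 8.21e-05 in limma's fit over all probes). All 4 ratios of *Tgfb2* were above 0.585, and 2.63% of all genes had a larger ratio than its brighter probe. By the methods' t-test the brighter probe had an unadjusted p of 0.0707 and did not pass the threshold.

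*Tgfb1*, the most widely expressed TGF-beta, was dim, with log2 signals of 8.53 in depleted and 8.24 in control RNA for replicate 1, and of 8.43 and 8.16 for replicate 2. Its ratios of 0.28 and 0.27 gave a mean of 0.28 ± 0.012 (SD, n = 2; interval 0.17 to 0.38; limma adjusted p = 0.00261). The probe was printed at many places on the array, which shows the spread of a single spot. The 10 spots used for replicate 1 ranged from 0.18 to 0.44 with a median of 0.28, and the 9 used for replicate 2 ranged from 0.14 to 0.52 with a median of 0.27. Every spot was above 0 and below 0.585. The SD between spots of this dim probe was 0.075 and 0.13, which is larger than the SD of 0.012 between the arrays' means. Every other member probe was read from 1 spot per array.

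*Bmp4*, the BMP ligand used to keep mESCs undifferentiated with LIF, had log2 signals of 12.69 in depleted and 12.22 in control RNA for replicate 1, and of 12.68 and 12.23 for replicate 2. The ratios of 0.47 and 0.46 were nearly equal, with a mean of 0.46 ± 0.011 (SD, n = 2; interval 0.36 to 0.57; limma adjusted p = 0.000357). The difference corresponds to 1.38-fold, below the threshold of change, and 8.68% of all genes had a larger ratio. A second *Bmp4* probe was not well above background in either channel of either array and was not tested. *Tgfbi*, which encodes a matrix protein that TGF-beta induces, had log2 signals of 11.02 in depleted and 10.73 in control RNA for replicate 1, and of 10.92 and 10.70 for replicate 2. Its ratios of 0.29 and 0.22 gave a mean of 0.25 ± 0.049 (SD, n = 2; interval 0.14 to 0.37; limma adjusted p = 0.00435), and 19.3% of all genes had a larger ratio.

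**Figure D3:**
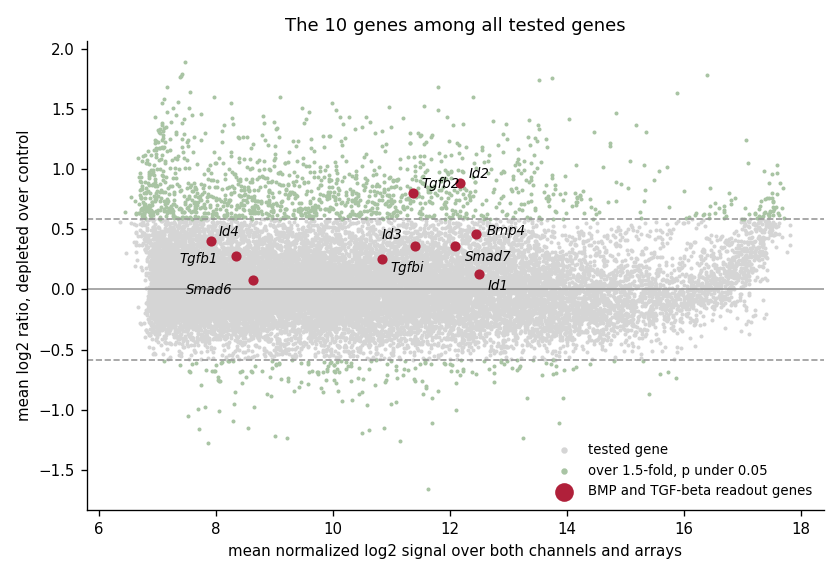
Mean log2 ratio of every tested gene (grey, or green where it passed the threshold of change) against its mean normalized log2 signal, with the 10 genes in red. *Id2* and *Tgfb2* lie above the upper dashed line of 1.5-fold (0.585), and the other 8 lie between 0 and that line.

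The rest of the pathway was taken from lists of 107 genes in 9 roles, of which 94 were tested and 13 were not well above background. Outside the 10 genes, 35 were raised (37.2% of those tested, against 5.53% of all genes) and 2 were lowered. The median log2 ratio of the 94 was 0.268. The lists were chosen with results of these data known, and 7 of their genes (*Fbn1*, *Col1a1*, *Dcn*, *Hand1*, *Cdx2*, *Tdgf1* and *Tbx3*) are also in the marker lists below.

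The list of BMP ligands held 8 tested genes, of which 3 were raised and 0 were lowered. *Bmp1* bears the name but encodes a metalloprotease that cleaves procollagens and the BMP antagonist chordin. Of the 7 tested genes without it, 2 were raised, *Bmp8b* with a log2 ratio of 0.84 and *Bmp2* with 0.69, and the median was 0.182. *Bmp1* had 0.97 ± 0.074 (SD, n = 2; limma adjusted p = 4.92e-05), and its other tested probes gave 1.25 and 0.25 and thus disagreed with each other. *Bmp7* was the only tested BMP ligand with a ratio below 0, at -0.36 ± 0.077 (SD, n = 2; limma adjusted p = 0.00131), under 1.5-fold. Of 10 further genes of the TGF-beta family, listed as TGF-beta and activin ligands but with *Lefty1*, *Lefty2*, *Inha* and *Gdf15* among them, 2 were raised. *Inhba*, the subunit of activin A, had 1.19 ± 0.030 (SD, n = 2; limma adjusted p = 3.28e-05), and *Tgfb3* had 0.86 ± 0.028 (SD, n = 2; limma adjusted p = 5.25e-05). *Nodal*, the ligand of the same branch that acts in the early embryo, had 0.46, which is under the threshold. All 3 TGF-beta genes were thus above 0 on both arrays, *Tgfb2* and *Tgfb3* by more than 1.5-fold.

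TGF-betas are held in the matrix by latent binding proteins and set free by integrins and thrombospondin. All 8 tested genes of this step had ratios above 0, and 4 of them were raised. *Thbs1*, which encodes thrombospondin, had a log2 ratio of 1.20 ± 0.10 (SD, n = 2; limma adjusted p = 3.95e-05). *Fbn1*, the microfibril protein fibrillin, had 1.00, *Lrrc32*, which anchors latent TGF-beta at the cell surface, had 0.67, and *Ltbp1*, a latent binding protein, had 0.63. With the scanner's processed signals *Ltbp1* was at 0.573 and under the threshold.

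Of 15 receptors and co-receptors tested, 2 were raised and 1 was lowered, with a median of 0.117. *Tgfbr2*, the type II receptor of TGF-beta, had ratios of 0.91 on both arrays (limma adjusted p = 4.73e-05), but its other probe gave 0.34. *Tgfbr3*, a co-receptor that presents TGF-beta 2 to the receptors, had 0.65 ± 0.063 (SD, n = 2; limma adjusted p = 0.000143). *Tdgf1*, the Nodal co-receptor Cripto and a marker of undifferentiated cells, was lowered, with -0.59 ± 0.067 (SD, n = 2; limma adjusted p = 0.000197). It was under the threshold with processed signals, with median centring and in the authors' deposited table, where the ratio nearest 0 was -0.20. The BMP type I receptor gene *Bmpr1a* and the type II gene *Bmpr2* had 0.13 and 0.19. Of the 5 signal-transducing Smads tested, none passed the threshold of change, and their ratios were 0.44 for *Smad4*, 0.39 for *Smad3*, 0.31 for *Smad1*, 0.20 for *Smad2* and 0.17 for *Smad5*. The other probes of *Smad4* and *Smad1* gave 0.07 and 0.04, so the ratio of these genes depended on the probe. With median centring, which moved the median of all genes up, *Smad4* (0.675) and *Smad3* (0.616) passed the threshold.

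Secreted antagonists, several of which bind BMPs outside the cell, were raised in 6 of 12 tested genes and lowered in 0, with a median of 0.572. *Bmper*, a BMP-binding regulator, had the largest ratio of the role, with 1.22 and 1.54 on the arrays and a mean of 1.38 ± 0.23 (SD, n = 2; limma adjusted p = 6.54e-05). The BMP antagonists *Nbl1* and *Grem1* both had 1.21. *Fst*, follistatin, which binds activins, had 0.94, and *Htra1*, a secreted protease that binds TGF-beta family ligands, had 0.65. The classical BMP antagonists *Nog* and *Chrd* had 0.12 and 0.00. Of the 11 intracellular regulators, only *Pmepa1*, a TGF-beta target that keeps Smad2 and Smad3 from their receptor, was raised, with 0.94 ± 0.028 (SD, n = 2; limma adjusted p = 4.62e-05) and with 0.78 at its other probe. The median of these regulators was -0.02.

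**Figure D4:**
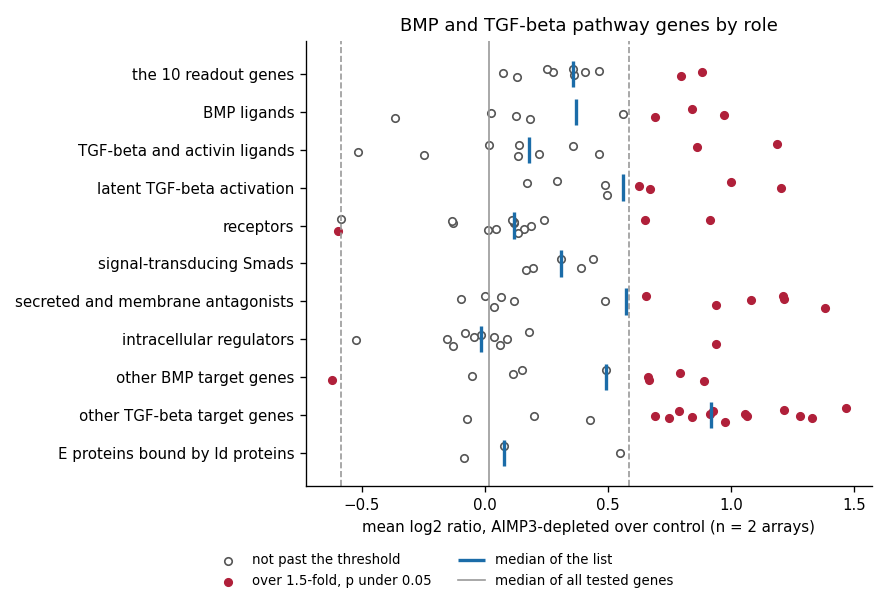
Mean log2 ratio (n = 2 arrays) of each tested gene of the BMP and TGF-beta pathways, 1 row per role, filled red where a gene passed the threshold of change, with a blue bar at the median of each list. TGF-beta target genes have the highest median (0.919) and 13 of 16 filled points, and the intracellular regulators have a median of -0.02, next to the grey line of all genes.

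Genes that the pathways are known to switch on in other cells were counted in the same way. Of 16 further TGF-beta target genes, 13 were raised and 0 were lowered, with a median of 0.919. Genes of contractile and matrix proteins stood at the top, with *Tagln* at 1.47 ± 0.12 (SD, n = 2; limma adjusted p = 3.28e-05), *Acta2* at 1.33, *Col1a1* at 1.06 and the collagen crosslinker *Lox* at 1.05. *Cdkn2b*, the cyclin-dependent kinase inhibitor p15, had 1.28, with 0.77 at its other probe. The matricellular genes *Ccn1* and *Ccn2* had 0.97 and 0.84, the protease inhibitors *Timp3* and *Timp1* 0.93 and 0.69, the transcriptional repressors *Snai2* and *Snai1* 0.91 and 0.75, and the fibronectin receptor subunit *Itga5* 0.79. The other 3 were *Fn1* with 0.43, *Junb* with 0.20 and *Klf10* with -0.07.

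Of 9 further BMP target genes tested, 4 were raised and 1 was lowered, with a median of 0.49. *Hand1*, *Gata2*, *Msx2* and *Cdx2*, transcription factors of mesoderm, trophoblast and ectoderm, had 0.89, 0.79, 0.67 and 0.66. *Cdx2* was at 0.54 and 0.78 on the arrays, on either side of 1.5-fold. *Hey1*, a repressor that Notch signalling also induces, was lowered at -0.62 ± 0.0061 (SD, n = 2; limma adjusted p = 0.000127), and with median centring it was at -0.459 and under the threshold.

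Many of these targets are also transcribed in other cell types, and the mESCs were generally cultured on feeder layers of mouse embryonic fibroblasts. For incubation with drugs the study's methods name medium conditioned by such fibroblasts, and whether feeder cells were present during the tamoxifen treatment is not given in the sources used here. The summed signal of 18 tested fibroblast markers was 89050 in depleted and 42260 in control RNA on the array of replicate 1, and 87640 and 40680 on that of replicate 2. Of these markers, 13 were raised and 0 were lowered, and *Col5a2* was not well above background in the control on either array. *Fap* and *Lum*, the other listed fibroblast markers, did not pass the filter on dim signals. Primitive endoderm markers were raised in 13 of 14 tested genes. Their summed signals were 400100 and 406800 in depleted against 187500 and 197000 in control RNA. Without *Sparc*, the brightest of them, the other 13 summed to 194600 and 188000 against 102200 and 102600. The second *Sparc* probe gave a log2 ratio of 0.71, against 1.24 at the brighter one. *Pdgfra* is in both this list and that of the fibroblast markers, and *Hnf4a* did not pass the filter on dim signals. Trophectoderm markers were raised in 7 of 11, with 194500 and 207300 against 71760 and 73160, and *Elf5* did not pass the filter on dim signals. The keratin gene *Krt18* made up most of this last sum, and without it the other 10 markers summed to 41820 and 39680 against 26730 and 24950. *Eomes* and *Tfap2c*, which mark the same lineage, had log2 ratios of -0.16 and -0.21 (limma adjusted p = 0.0286 and 0.00873), under 1.5-fold. The 3 sums thus moved with the *Id2*, *Tgfb2* and target gene ratios on both arrays, and their part in these results was not tested.

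The 18 pluripotency markers, all well above background in the control, had nearly equal sums, 371800 and 370500 in depleted against 363800 and 364600 in control RNA. This rested on *Dppa5a*, the brightest of them, and without it the other 17 summed to 185700 and 173500 against 233700 and 223200. Of the 18, 0 were raised and 3 were lowered, with a median of -0.119. The lowered genes were *Fgf4* with -0.87, *Dppa3* with -0.62 and *Tdgf1*. At any fold, 6 had a higher and 9 a lower signal in depleted RNA with a limma adjusted p under 0.05, and 8 of the 18 ratios were above 0. With median centring 2 were raised and 0 were lowered, with a median of 0.116, which is -0.0645 relative to all genes. *Pou5f1*, *Sox2* and *Nanog*, the core factors of the undifferentiated state, had mean log2 ratios of -0.48, -0.53 and -0.38, below 1.5-fold. The arrays gave -0.64 and -0.32 for *Pou5f1*, on either side of 1.5-fold, and a second *Nanog* probe gave 0.06. Ratios above 0 included those of *Dppa5a* (0.50), *Tbx3* (0.49), *Klf5* (0.34), *Tfcp2l1* (0.33), *Klf2* (0.29) and *Klf4* (0.14), which are also markers of undifferentiated cells. Each of the 18 was also well above background in depleted RNA on both arrays, so markers of the labelled cell type were measured in both groups.

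The ratios of the 10 genes were also read against the median of all genes, since the processing moved both. The all-gene median moved from 0.0156 to 0.181 with median centring in place of loess, and the median of the 10 genes from 0.36 to 0.536. Relative to the all-gene median, the median of the 10 lay between 0.339 and 0.355 in all 10 ways of processing. *Id2* lay between 0.862 and 0.929 above that median and *Tgfb2* between 0.781 and 0.847, while *Id1* lay between 0.107 and 0.183 and *Smad6* between 0.0158 and 0.0696. *Smad6* was at -0.01 before this subtraction when the scanner's processed signals were used. *Id2* and *Tgfb2* passed the threshold in every one of these ways, and with median centring *Bmp4* and *Smad7* passed it too. By the methods' t-test, which borrows no spread from other genes, *Id2* passed the threshold and *Tgfb2* did not.

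**Figure D5:**
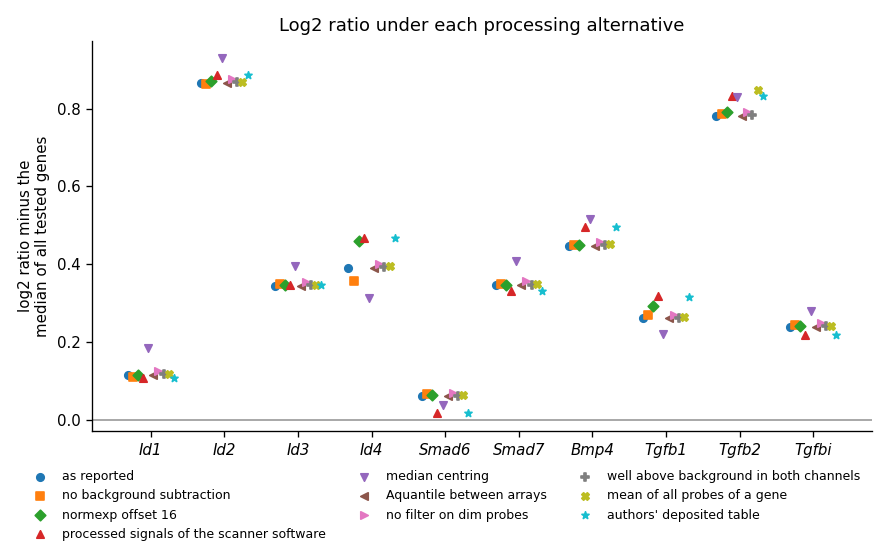
Log2 ratio of each of the 10 genes minus the median of all tested genes, with a symbol for each way of processing the arrays. *Id2* and *Tgfb2* are highest and *Smad6* is lowest in every setting shown, and the dim *Id4* is spread from 0.314 to 0.468.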

How the data were processed

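Per the labels, 2 AIMP3-depleted samples (Cy5) were each hybridized against 1 control pool (Cy3). Both arrays lay on 1 slide. The authors deposited the scanner output of Agilent Feature Extraction 11.5.1.1, which holds spot and local background intensities, processed signals and their log10 ratio, all as written by the software. The authors also deposited log2 ratios in a value table. The methods name GeneSpring GX for that table and describe its ratio as control over test. The deposited log2 values equalled the scanner's processed Cy5 over Cy3 plus 0.0404 and 0.0395 within 0.01 for 99.7% of 55681 probes, with medians of 0.0909 and 0.111, so they run as depleted over control. How the processed signals were centred is not given in the sources used here. The deposited p-value of each spot covers noise within 1 array and was not used.

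Median signals were corrected with limma's normexp (offset 50) and normalized by loess within each array. Of 62976 spots per array, 59305 were not controls and were kept, apart from 215 and 227 outlier spots. Of these spots 0 were saturated. The median signal over background was 2.68 to 3.31, 59.3% to 60.6% of spots were well above background, and precision is limited by having 2 arrays. A probe was tested where each array read it well above background in either channel (33012 probes, with 22669 left out), and the brightest stands for a gene. Of 24022 genes tested, 14975 were named through RefSeq accessions (GRCm38.p6), which covered 31014 spots. Probe coordinates are left out, the array's own design being on another build.

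The mean ratio was tested against 0 with lmFit and eBayes (residual df 1, prior df 5.29), and a gene was called when over 1.5-fold with an unadjusted p under 0.05. The members, lists, rules and tests were chosen with earlier results of these data known. The rule names all members, *Eef1e1*, each pathway gene called, and the largest ratio of a role with no call. Other named genes (*Bmp7*, *Nodal*, *Bmpr1a*, *Bmpr2*, *Nog*, *Chrd*, *Fn1*, *Junb*, *Klf10*, the other Smads and E proteins, and marker genes) were chosen after their values were seen. The counts without *Bmp1* and the sums without the brightest marker were also added after the values were seen. Lists were counted and given no test of their own. The values of 2 list genes are not reported here.

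Simulated data with 24022 genes were used as a check. For the simulated comparison of AIMP3-depleted over control, 45 of 45, 50 of 50, 48 of 48 and 57 of 57 genes with true log2 ratios of -2, -1, 1 and 2 were called in the right direction, and 2 unchanged genes were called. The columns of per-sample values left out numbered 0. Software was limma 3.58.1 in R 4.3.3.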

Additional observations from a re-analysis of the deposited data

How the results depend on the processing

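Under 9 other ways of background correction, normalization, filtering and naming, *Id2* and *Tgfb2* kept their direction and passed the threshold, and the other members did not pass it except with median centring. With median centring, 4 of the 10 genes were raised (*Bmp4* at 0.696 and *Smad7* at 0.588 beside *Id2* and *Tgfb2*), their median was 0.536 against 0.181 for all genes, 44 pathway genes passed, and 2891 of all genes passed (97.8% of them raised, against 87.5%). The scanner's processed signals gave 2713 genes (71.6% raised) and the authors' deposited values gave 2747 (77.5% raised). The methods' t-test called 993 genes and 1 member, *Id2*, and 0 genes had an adjusted p under 0.05 by it (5877 unadjusted, and 13044 adjusted by limma). A threshold of 2-fold called 298 genes, 12 pathway genes and 0 members. *Smad6* was at -0.0129 with processed signals, at -0.00744 without replicate 2 and at 0.158 without replicate 1. *Id1* had a limma adjusted p of 0.0416 when both channels had to be well above background, and of 0.191 with processed signals. With median centring its limma adjusted p was 7.54e-07 at a ratio of 0.364, beside the all-gene median of 0.181. *Tgfbi* had 0.051 with processed signals. *Eef1e1* ranged from -0.985 to -0.679. Leaving out a replicate leaves 1 array and no test, and gave 2 members over 1.5-fold, 35 to 38 pathway genes (37 pass with both arrays), 1522 to 1651 genes in all and a member median of 0.319 to 0.399. Scaling the average signals between arrays (Aquantile) left all ratios as they were, since it does not act on them. No paired analysis was possible because there is 1 group of arrays and 1 control pool. The causes of these differences were not tested. Dim members (*Id4*, *Smad6*, *Tgfb1*) lie nearest the background, which limits their ratios.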
